A study of Mus musculus with 91 samples.

Results

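Cxcl9, Cxcl10, Irf1, Gbp2, Psmb8, Ubd and Ido1, 7 genes known as targets of interferon-gamma (IFN-gamma), were followed in liver, epididymal white adipose tissue (EAT) and mesenteric white adipose tissue (MAT) of mice on a high-fat diet (HFD) or a normal diet (ND). They were taken by symbol, with every probe that the array annotation names for them, which gave 15 probes out of 45281 (7 of 19057 named genes). The list was chosen by their measured HFD minus ND differences on these arrays, so that those differences are given as a description with no test. Male C57BL/6J mice received from 5 weeks of age either the HFD, the AIN-76 semi-purified diet made up with 20% fat and 1% cholesterol, or the ND, which is AIN-76 itself, with 18 mice for each diet and time. The liver data hold 51 arrays, with 3 for each diet at 2, 4, 6 and 8 weeks and then at every 4th week up to 24 weeks, and 3 from before the diets began (baseline, 0 weeks). The EAT data hold 30 arrays, with 3 RNA pools for each diet at 2, 4, 8, 20 and 24 weeks, and the MAT data hold 10 arrays, with 1 pool of 18 mice for each diet at the same weeks and so no replicate. Whether a liver array holds 1 mouse or a pool is not stated, and p-values measure only the spread between these arrays.

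IFN-gamma is secreted mainly by T cells and natural killer (NK) cells, and binds a receptor that signals through the kinases Jak1 and Jak2. The pathway acts on genes through gamma-activated sites (GAS), among others in the promoter of Irf1, and Irf1 in turn binds interferon-stimulated response elements (ISRE) of further genes. Macrophages are strong responders, and in obese fat and in fatty liver macrophages and lymphocytes accumulate.

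The promoters are shown because the GAS and ISRE are the elements through which this pathway is known to act. RefSeq windows of 300 bases around the transcription start were at hand for 6 of the 7 genes (GRCm38.p6; Irf1 had 2 windows). Both strands were searched for the ISRE core (GAAA repeated after 2 bases of any kind), the GAS core TTCNNNGAA and a kappaB form GGGANTTCC. In each stretch below, which runs 5′ to 3′ along the gene's strand and reaches at most 20 bases beyond the matches and not past the start, capitals mark the matched letters.
Cxcl10 (chr5:92348964-92349122, minus strand): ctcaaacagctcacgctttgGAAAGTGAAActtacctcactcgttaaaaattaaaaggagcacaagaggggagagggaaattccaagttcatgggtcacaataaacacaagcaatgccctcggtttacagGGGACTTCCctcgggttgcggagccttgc
Gbp2 (chr3:142620584-142620633, plus strand): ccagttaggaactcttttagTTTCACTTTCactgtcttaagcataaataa
Irf1 (chr11:53769904-53769952, plus strand): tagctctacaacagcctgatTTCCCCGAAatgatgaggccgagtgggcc
Psmb8 (chr17:34198078-34198126, plus strand): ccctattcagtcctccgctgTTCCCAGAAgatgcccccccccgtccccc
Cxcl9 (chr5:92328093-92328141, minus strand): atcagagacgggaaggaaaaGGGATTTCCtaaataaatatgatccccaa
Ubd (chr17:37193858-37193891, plus strand): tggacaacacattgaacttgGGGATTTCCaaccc
The Cxcl10 stretch holds an ISRE core 213 bases and a kappaB form 103 bases before the start. The ISRE core of Gbp2 lies on the opposite strand, and the GAS cores of Irf1 and Psmb8 begin 90 and 97 bases before their starts. Of all 32851 mouse windows of this length, 3.44% held the ISRE core, 8.3% the GAS core and 1.68% the kappaB form. The second Irf1 window held none of the 3. A match is a description of the letters and not a measured binding site.

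Levels are log2 values of quantile normalized probe intensities. Each tissue was normalized on its own, hence no level is compared between tissues, and a gene with several probes is represented by its brightest one. Apoa1 and Ttr, which hepatocytes express, were at 15.55 to 15.98 in liver, whereas the probe of Alb was at only 7.46 to 9.6. Adipoq, the adipocyte hormone, was at 14.16 to 15.43 in EAT, 14.05 to 15.23 in MAT and 6.81 to 7.21 in liver. Some EAT pools held hepatocyte transcripts too, since Apoa1 reached 14.04 and Ttr 14. Apoa1 reached 15.33 in MAT, where the hepatocyte markers Alb, Serpina1c, Fgb and Hpx were detected in no pool. In EAT 39.8% to 47.7% of the probes were detected at a detection p under 0.05, and in MAT 35.8% to 45.2%. The array background (5th percentile of probe intensity) was 89.9 to 92.1 on the 3 HFD pools against 118 to 120 on the 3 ND pools of EAT at 2 weeks, and 81.3 against 108 in MAT at 2 weeks. Diet and array background therefore cannot be told apart at 2 weeks in fat. In bulk tissue, a different number of cells of a type and a different amount of RNA per cell cannot be told apart.

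In liver, 6 of the 7 genes had higher mean levels on HFD than on ND at 2, 4, 6 and 8 weeks by 1.76-fold to 12.7-fold, and the differences of all 6 were smaller at 16 and 20 weeks than at 8 weeks. Cxcl9, Ubd and Gbp2 had the largest differences, Cxcl10 a middle one, and Irf1 and Psmb8 about 1 log2 unit or less for most of the early weeks. Ido1 was the exception, with differences from -0.06 to 0.14 throughout.

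Cxcl9 encodes a chemokine that attracts activated T cells through the receptor Cxcr3. At 2 weeks its log2 level was 12.93, 12.79 and 12.85 in HFD livers, against 10.29, 10.20 and 10.49 in ND livers. At 8 weeks it was 13.09, 13.49 and 13.41 in HFD livers, against 9.91, 9.39 and 9.70 in ND livers, and the baseline livers had 10.30, 10.10 and 10.25. The lowest HFD liver thus lay more than 2 log2 units above the highest ND liver at both weeks, while ND livers stayed near baseline. The HFD minus ND difference was 2.53, 2.92, 3.56, 3.66 and 2.26 from 2 to 12 weeks, then 0.87, 1.45 and 1.35 from 16 to 24 weeks (SE 0.43, n = 3 per diet). At 16 weeks HFD livers had 9.53, 11.31 and 10.76, against 10.22, 9.35 and 9.41 in ND livers, so that the diets overlapped. At 24 weeks they overlapped as well, since the HFD livers had 10.54, 10.93 and 12.88, against 10.59, 9.88 and 9.84 in ND livers.

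Cxcl10, the neighbouring chemokine gene on chromosome 5 with the same receptor, followed at lower amplitude. At 8 weeks its level was 9.62, 9.96 and 9.67 in HFD livers, against 8.19, 7.98 and 8.28 in ND livers. Its difference was 1.14 to 1.67 from 2 to 12 weeks, then 0.46, 0.63 and 1.25 from 16 to 24 weeks (SE 0.298). All HFD livers lay above all ND livers at each week other than 16 weeks. The dimmer of the 2 Cxcl10 probes showed at most 0.73, at 8 weeks.

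Irf1, the transcription factor of this group, had 12.09, 12.12 and 12.07 in HFD livers at 8 weeks, against 11.24, 11.21 and 11.10 in ND livers. Its difference was largest at 6 weeks, at 1.21, and from 12 to 24 weeks it was 0.68, 0.27, 0.18 and 0.09 (SE 0.171). Of its other 4 probes, 3 gave 0.74 to 1.08 at 8 weeks and ILMN_2624100 gave 0.28.

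Gbp2, a GTPase of the guanylate-binding family that acts on vacuoles of intracellular pathogens, had 11.67, 11.93 and 11.86 in HFD livers at 8 weeks, against 9.20, 8.85 and 8.98 in ND livers. Its difference was 2.81 at that week, or 7.01-fold, and 0.73, 0.89 and 1.48 at 16, 20 and 24 weeks (SE 0.301). Gbp2 and Ubd were the only 2 of the 7 genes with all HFD livers above all ND livers at every week. The probes of Gbp2 did not agree, since ILMN_2605602 had differences of only -0.02 to 0.18 in liver.

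Psmb8 and Ubd belong to protein degradation. Psmb8 replaces a catalytic subunit in the immunoproteasome, which cuts peptides for MHC class I, and Ubd (FAT10) is a ubiquitin-like protein that marks proteins for the proteasome. Psmb8 had 12.03, 12.20 and 12.19 in HFD livers at 8 weeks, against 10.92, 11.09 and 11.14 in ND livers, a difference of 1.09 (SE 0.175). At 16 weeks it had 9.80, 10.92 and 10.80 in HFD livers, against 11.19, 10.75 and 11.05 in ND livers. The mean of HFD livers was then 0.49 lower, with overlapping diets, and its second probe, at -0.32, was the only one of the 15 with all HFD livers below all ND livers (7.87% of all probes were so at 16 weeks).

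Ubd in ND livers stayed within 0.5 log2 units of baseline, at group means of 7.52 to 7.99, and was higher in every HFD liver than in the ND livers of its week. At 8 weeks it was 10.65, 10.87 and 10.81 in HFD livers, against 7.38, 7.51 and 7.69 in ND livers, or 9.54-fold higher. At 24 weeks it was 9.98, 9.70 and 10.86 in HFD livers, against 8.11, 7.82 and 7.82 in ND livers, a difference of 2.26, which was larger than at 16 weeks (1.13) and 20 weeks (1.19; SE 0.34).

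Ido1, the enzyme that opens the kynurenine route of tryptophan breakdown in immune cells, had levels of 6.69 to 7.18 over all HFD livers and 6.71 to 7.05 over all ND livers, at or near the array median of 7.04. Detection p-values were not given for liver, and a difference at this level may not be measurable.

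**Figure D1:**
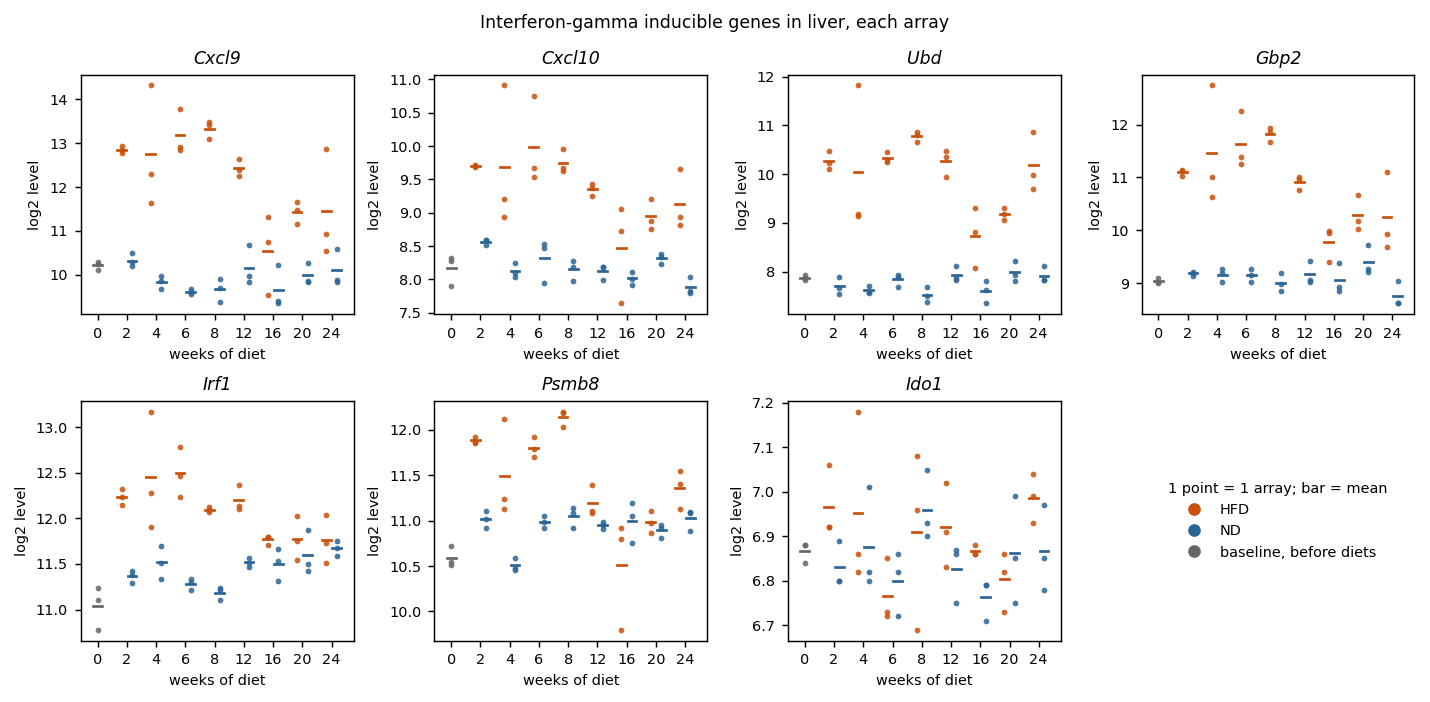
Log2 level of the brightest probe of each of the 7 genes (y axis) in each liver array by weeks of diet (x axis), with HFD arrays in one colour left of ND arrays and the baseline at 0 weeks; points are single arrays and short bars are group means. Cxcl9, Ubd and Gbp2 stood furthest apart at 8 weeks (12.7-fold, 9.54-fold and 7.01-fold), and the diets lay closest for these 3 genes at 16 weeks.

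Over all 15 probes, the number with every HFD liver above every ND liver was 12, 9, 13, 13 and 11 at 2, 4, 6, 8 and 12 weeks and 5, 5 and 9 at 16, 20 and 24 weeks. Among all probes of the array that share was 7.5%, 7.53%, 13%, 8.02% and 8.45% in the first 5 of these weeks and 8.43%, 8.99% and 10.7% in the last 3. The members were chosen on this contrast, so that nothing is read from these counts. The median difference of the 7 genes was 1.6 at 8 weeks and 0.46 at 16 weeks, beside a median of 0 or -0.01 over all probes.

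In some groups of livers the same array was the highest or lowest for most of the 7 genes. At 4 weeks HFD replicate 2 was the highest HFD liver for 7 of 7 genes (33.3% of all probes), with a Cxcl9 level of 14.32 against 12.31 and 11.63 in the other 2, and replicate 2 was also the highest for 7 of 7 at 6 weeks (36.3% of all probes). At 24 weeks HFD replicate 3 was the highest for 7 of 7 (37.2% of all probes), and at 16 weeks HFD replicate 1, whose array correlated least with the other liver arrays (mean r = 0.962), was the lowest for 6 of 7 (35.8% of all probes). These counts include Ido1, which was near the array median. Of the 17 groups of livers, 7 had 1 array that was highest for 6 or 7 genes, 6 had 1 that was highest for 5, and in the other 4 it was 3 or 4 genes. Left out one at a time, these arrays moved the Cxcl9 difference to 2.13 (4 weeks), 1.37 (16 weeks) and 0.64 (24 weeks), and that of Psmb8 at 16 weeks to -0.14.

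The other genes of the pathway were described with 6 lists that hold 48 measured genes and none of the 7. HFD was higher for 9, 22, 21 and 20 of them at 2, 4, 6 and 8 weeks and for 6, 2, 2 and 6 at 12, 16, 20 and 24 weeks (limma, Benjamini-Hochberg adjusted p under 0.05). Over all probes the share called higher was 1.05%, 1.56%, 3.98% and 2.19% in the first 4 of these weeks and 0.711%, 3.45%, 1.77% and 2.99% in the last 4. HFD was lower for 1 gene (6 weeks), 2 genes (16 weeks) and 1 gene (20 weeks), and for none in the other weeks. The share called lower was 0.76%, 1.08%, 3.45%, 1.42%, 0.446%, 2.67%, 1.01% and 2.09% of all probes from 2 to 24 weeks. These lists were also written with earlier results of the data known, and their counts are not independent evidence of a direction. At 4 weeks the count rested on HFD replicate 2, without which 5 genes were called.

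Of the interferon-inducible GTPases, relatives of Gbp2 that attack pathogen vacuoles, 8 of the 12 were higher on HFD at 4 weeks and at 8 weeks 7 of the 12, among them Gvin1 by 1.89 (SE 0.22, limma adjusted p = 1.03e-07), Igtp by 1.58 (SE 0.316, adjusted p = 0.000928) and Tgtp1 by 1.44 (SE 0.226, adjusted p = 2.74e-05) at 8 weeks. Of the 11 genes of MHC class I antigen processing 6 were higher at 4, 6 and 8 weeks each. They included the other 2 inducible proteasome subunits, Psmb10 at 11.8 in HFD livers against 10.48 in ND livers and Psmb9 at 11.56 against 10.32 at 8 weeks. Of 8 other proteasome subunits, kept as a list named constitutive proteasome, none passed the limma test at any week in liver, and 0 to 2 had an unadjusted p under 0.05. The list is not limited to subunits that the inducible ones replace.

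Transcription factors of the pathway followed, with 4 of 6 higher at 8 weeks, including Irf8, a factor of macrophages and dendritic cells (1.25, SE 0.152, limma adjusted p = 2.48e-07), and Ciita, the master regulator of MHC class II (0.92, SE 0.166, adjusted p = 0.000236). Ccl5, a T cell chemokine of the list around Cxcr3, was 9.62 in HFD livers and 7.5 in ND livers at 8 weeks (adjusted p = 0.000117). Ifng itself differed by -0.04 to 0.22 in liver, with limma adjusted p of 0.2 or more at every week.

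Of 17 measured genes best known as targets of type I interferons, HFD was higher for 1, 2, 1 and 4 at 4, 8, 16 and 24 weeks, and lower for 3, 1, 6, 2, 2, 4 and 6 at 2, 4, 6, 8, 12, 16 and 20 weeks (limma, adjusted p under 0.05). Their difference from the 6 lists was not tested. Usp18, an inhibitor of the type I receptor, was lower at 7 of the 8 weeks, by 0.94 at 6 weeks (10.91 in HFD livers and 11.85 in ND livers, SE 0.116, limma adjusted p = 2.28e-07). Rsad2, an antiviral enzyme, was 10.31 in HFD livers and 11.36 in ND livers at 6 weeks (adjusted p = 1.51e-06), whereas at 24 weeks it was 10.02 and 9.47 (adjusted p = 0.0124). Both genes were chosen after their values were seen.

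Macrophage markers were higher in the same livers. The summed linear signal of 10 markers was 12285 to 13128 in HFD livers at 8 weeks, against 4853 to 5640 in ND livers, and 7 of the 10 passed the limma test, Adgre1 by 1.59 and Aif1 by 1.82. At 16 weeks the sum was 4919 to 7567 in HFD livers and 3153 to 4567 in ND livers, and at 20 weeks 8790 to 9239 in HFD livers and 4838 to 5187 in ND livers. T and NK cell markers summed to 2606 to 2742 in HFD livers and 2087 to 2211 in ND livers at 8 weeks, where 2 of 11 passed the test (Cd3e and Cd3d). The part of these cells in the differences was not tested.

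The contrast of early with late weeks was set after the weekly values had been seen. For 23 of the 48 pathway genes the HFD minus ND difference was larger at 4, 6 and 8 weeks than at 16, 20 and 24 weeks (limma, adjusted p under 0.05), and for none was it smaller (2 at an unadjusted p under 0.05). Over all probes 1.68% had a larger and 2.94% a smaller difference early. The 23 genes held 8 of 12 GTPases, led by Igtp (1.67 larger, SE 0.258), and 7 of 11 genes of antigen processing, led by Psmb9 (1.34 larger, SE 0.19). Of the 17 type I targets 1 was larger and 1 smaller early. For the members, as a description, the mean difference early and late was 3.38 and 1.22 for Cxcl9, 2.53 and 1.03 for Gbp2, 1.02 and 0.18 for Irf1, and 0.96 and -0.02 for Psmb8.

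**Figure D2:**
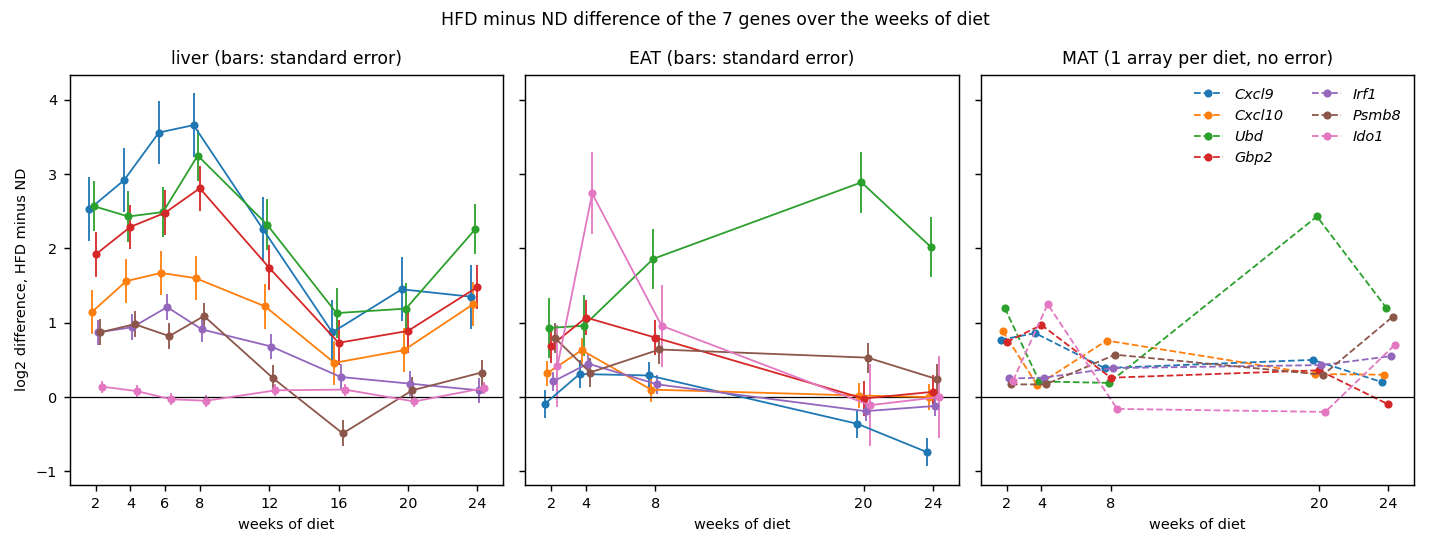
HFD minus ND difference (log2, y axis) of the brightest probe of each gene by weeks of diet (x axis) in liver, EAT and MAT; bars are standard errors of the limma fit, with none in MAT, where each diet had 1 pool. In liver the differences were largest up to 8 weeks, while in EAT that of Ubd reached 2.89 at 20 weeks and those of Cxcl9 were -0.36 and -0.74 at 20 and 24 weeks.

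In EAT the 7 genes did not move together. Ubd was higher on HFD at every week and most at 20 weeks, by 7.41-fold. Gbp2 and Ido1 were higher at 4 and 8 weeks and close to ND later, and Cxcl9 was lower on HFD at 24 weeks.

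At 2 weeks Ubd was 9.97, 9.19 and 9.79 in HFD pools, against 8.59, 8.60 and 8.97 in ND pools. At 8 weeks it was 10.96, 11.08 and 10.55 in HFD pools, against 9.23, 8.84 and 8.94 in ND pools. At 20 weeks it was 13.19, 12.81 and 12.94 in HFD pools, against 9.13, 10.29 and 10.85 in ND pools. No HFD pool of these weeks overlapped with the ND pools, and the ND pools of 20 weeks were themselves spread, from 9.13 to 10.85. The HFD minus ND difference was 0.93, 0.96, 1.86, 2.89 and 2.02 at 2, 4, 8, 20 and 24 weeks (SE 0.408, n = 3 per diet). At 24 weeks the HFD pools had 12.70, 12.07 and 12.85, against 11.14, 10.89 and 9.53 in ND pools, so that the diets stayed apart.

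Macrophage markers were higher in the late HFD pools. Their sum was 44599 to 46649 in HFD pools and 18321 to 22839 in ND pools at 20 weeks, and 40089 to 49422 in HFD pools and 18997 to 19601 in ND pools at 24 weeks. At both weeks 7 of the 10 markers were higher and 1, Cd163, lower. The sums at 8 weeks lay closer, at 24334 to 26567 in HFD pools and 17030 to 19773 in ND pools, and those at 4 weeks overlapped, at 13891 to 14905 in HFD pools and 13796 to 19686 in ND pools. At 2 weeks the macrophage sums did not overlap either, at 16549 to 18723 in HFD pools and 7833 to 10353 in ND pools. Diet and array background cannot be told apart at that week. B cell markers (4 genes) summed to 1068 to 1151 in HFD pools and 614 to 683 in ND pools at 20 weeks, and to 1931 to 2549 in HFD pools and 789 to 1026 in ND pools at 24 weeks. Of these 4 genes, Ms4a1 and Cr2 were detected in neither diet at these weeks. Of 11 T and NK cell markers none passed the limma test at 20 or 24 weeks (1 at each week at an unadjusted p under 0.05), and Cd8a, Cd4, Gzmb, Klrb1c and Ncr1 were not detected in either diet at these weeks. Ubd was the only one of the 7 genes with a larger difference at 20 and 24 weeks than at 4 and 8 weeks (means 2.46 late and 1.41 early), and the part of macrophages and B cells in it was not tested.

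**Figure D3:**
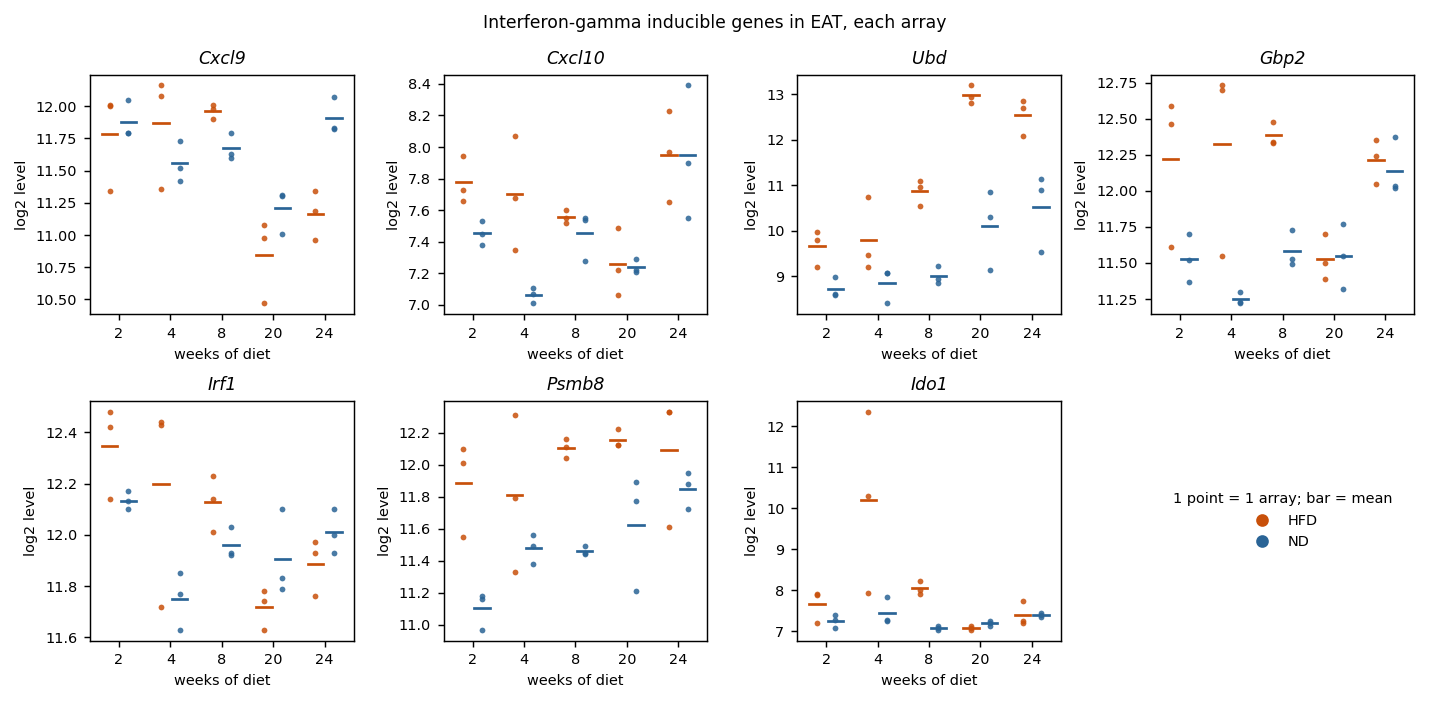
Log2 level of the brightest probe of each of the 7 genes (y axis) in each EAT pool by weeks of diet (x axis), with HFD pools in one colour left of ND pools; points are single pools and short bars are group means. Ubd of HFD pools lay between 12.81 and 13.19 at 20 weeks, above all ND pools, and Cxcl9 of HFD pools lay between 10.96 and 11.34 at 24 weeks, below all ND pools.

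Cxcl9 in EAT ran opposite to liver at the late weeks. At 24 weeks it was 11.19, 10.96 and 11.34 in HFD pools, against 12.07, 11.83 and 11.82 in ND pools, a difference of -0.74 (SE 0.187). At 20 weeks it was 11.08, 10.98 and 10.47 in HFD pools, against 11.01, 11.31 and 11.30 in ND pools. The pools overlapped at 20 weeks and did not at 24 weeks. At 8 weeks all HFD pools (11.90 to 12.01) lay slightly above all ND pools (11.60 to 11.79).

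Cxcl10 was close to the detection limit in EAT. Its brighter probe was detected at 4 weeks on 3 HFD pools and on none of the ND pools, so that it was at least 1.47-fold higher on HFD. Its second probe was detected on no EAT pool. From 8 weeks on the difference was 0 to 0.10 (SE 0.17).

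Gbp2 was 12.70, 12.73 and 11.55 in HFD pools at 4 weeks, against 11.22, 11.30 and 11.23 in ND pools. At 8 weeks it was 12.33, 12.34 and 12.48 in HFD pools, against 11.73, 11.53 and 11.49 in ND pools, a difference of 0.80 (SE 0.232). HFD pool 3 of 4 weeks stood well below the other 2 for Gbp2. It was the lowest HFD pool of that week for 5 of the 7 genes (36.4% of all probes). By 20 and 24 weeks the diets overlapped, with differences of -0.02 and 0.07.

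By its brightest probe Irf1 differed between the diets by 0.45 or less at every week in EAT (SE 0.132). At 4 weeks ILMN_2599782, ILMN_2649067 and ILMN_2649068 gave 0.52, 0.56 and 0.56, without overlap (5% of all probes lay above). At 8 weeks they gave 0.25, 0.32 and 0.18, again without overlap (10.7% of all probes), while ILMN_2624100 overlapped at both weeks. At 2 weeks they gave -0.22, -0.21 and -0.06, with overlap. At 20 weeks the brightest probe was at 11.74, 11.78 and 11.63 in HFD pools, against 12.10, 11.83 and 11.79 in ND pools. The HFD pools thus lay lower by a narrow gap, while the other probes overlapped. When median scaling replaced quantile normalization, the difference at 20 weeks changed from -0.19 to 0.11. Psmb8 was higher on HFD by 0.24 to 0.79 (SE 0.2), without overlap at 2, 8 and 20 weeks, while its dimmer probe had -0.29 at 2 weeks and 0.18 to 0.54 at the other weeks. At 8 weeks it was 12.11, 12.16 and 12.04 in HFD pools, against 11.49, 11.44 and 11.45 in ND pools.

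Ido1 gave the largest single difference of the 7 genes in EAT after Ubd, and it rested on pools with transcripts of another tissue. At 4 weeks its level was 7.93, 10.29 and 12.35 in HFD pools 1, 2 and 3, against 7.25, 7.28 and 7.83 in ND pools 1, 2 and 3, a difference of 2.74 (SE 0.552). Ido1 is also known as an abundant transcript of the mouse epididymis, the organ this fat depot surrounds. The summed signal of 8 markers of epididymis epithelium was 1477, 178798 and 203294 in the same HFD pools, against 1840, 11515 and 28165 in the ND pools. The pool with the highest Ido1 in each diet was the one with the highest sum. All 8 markers were detected in the HFD pools of 4 weeks and 5 of 8 in the ND pools, where Lcn5, Lcn9 and Rnase10 were not. Without HFD pools 2 and 3, which leaves 1 HFD pool, the Ido1 difference was 0.48, that of Ubd was 0.36 (0.96 with all pools) and that of Gbp2 was 1.45. The part of epididymis tissue in these differences was not tested.

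At 8 weeks Ido1 was 7.91, 8.22 and 8.00 in HFD pools, against 7.09, 7.13 and 7.04 in ND pools, without overlap. The sums of the epididymis markers were then 3694, 926 and 975 in HFD pools, against 1137, 1026 and 978 in ND pools. All pools of 8 weeks held hepatocyte transcripts as well, with summed signals of 8 markers of 30502 to 46464 in HFD pools and 21284 to 57222 in ND pools. The part of either tissue in the difference of this week was not tested. At 20 weeks Ido1 was 7.04, 7.12 and 7.08 in HFD pools, against 7.25, 7.20 and 7.14 in ND pools, near the array median of 6.97.

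**Figure D4:**
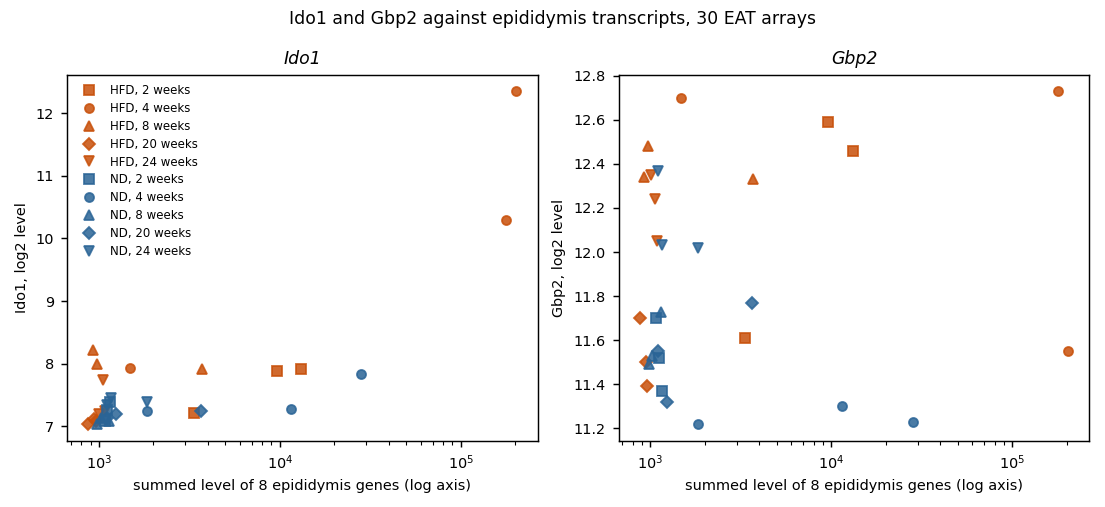
Log2 level of Ido1 and of Gbp2 (y axes) against the summed linear signal of 8 epididymis markers (x axis, log scale) in the EAT pools; each point is 1 pool, coloured by diet and shaped by week. HFD pools 2 and 3 of 4 weeks, with sums of 178798 and 203294, had the 2 highest Ido1 levels, 10.29 and 12.35, while Gbp2 in them was 12.73 and 11.55.

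Over the 15 probes, every HFD pool lay above every ND pool for 5, 7, 10, 3 and 2 at 2, 4, 8, 20 and 24 weeks, where 18.7%, 5%, 10.7%, 12.2% and 13.2% of all probes did. Every HFD pool lay below every ND pool for 2 probes at 20 weeks and 1 at 24 weeks, where 12.6% and 12.7% of all probes did. At 2 weeks HFD pool 2 was the lowest HFD pool for 7 of 7 genes (24.2% of all probes). The array that correlated least with the other EAT arrays was HFD pool 1 of that week (mean r = 0.934). Epididymis markers summed to 9607, 3338 and 13177 in HFD pools 1, 2 and 3 of 2 weeks (1076 to 1157 in ND pools). The part of epididymis tissue in the levels of that week was not tested. As in liver, the members were chosen on this contrast and nothing is read from the counts.

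Of the 48 pathway genes HFD was higher for 17, 6, 4, 4 and 6 at 2, 4, 8, 20 and 24 weeks in EAT (limma, adjusted p under 0.05), where 14.5%, 0.272%, 0.517%, 3.85% and 5.99% of all probes were called higher. HFD was lower for 5 genes (2 weeks), 2 genes (20 weeks) and 1 gene (24 weeks), beside 21.7%, 3.54% and 4.51% of all probes. At 4 weeks 4 of the 6 genes were GTPases, with Ifi47 higher by 1.04 (SE 0.2, adjusted p = 0.0249) and Gvin1 by 0.95 (SE 0.212, adjusted p = 0.0465). The largest difference there was that of Wars, the tryptophanyl-tRNA synthetase that IFN-gamma induces, which was 11.09 in HFD pools and 9.75 in ND pools (adjusted p = 0.00165). The count of 6 was 1 without any single ND pool of 4 weeks or without HFD pool 2, 11 without HFD pool 3, and 4 without HFD pools 2 and 3 together. At 8 weeks 3 GTPases were higher, among them Gbp5 by 0.82 (SE 0.121, adjusted p = 0.000989), and the count of 4 was 1 to 3 without any single pool.

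At 20 and 24 weeks no GTPase was higher by the limma test (1 of the 12 at each week had an unadjusted p under 0.05 in either direction), and Gvin1 was lower at 20 weeks by 0.70 (SE 0.212, limma adjusted p = 0.0459). Irf8 was 9.43 in HFD pools and 8.53 in ND pools at 20 weeks (adjusted p = 1.49e-05). Jak1, a kinase of the receptor, was lower on HFD at both weeks, at 9.22 in HFD pools against 10.36 in ND pools at 24 weeks (adjusted p = 1.35e-05). The difference of 10 pathway genes was larger at 4 and 8 weeks than at 20 and 24 weeks, with 8 of 12 GTPases among them, and it was smaller for 2, Irf8 and Il18bp (2.88% and 3.96% of all probes). As in liver, the contrast of early with late weeks was set after the weekly values had been seen. Its p-values are therefore not independent of that choice. Igtp led with 1.57 (SE 0.381, limma adjusted p = 0.0107), and Gvin1 had 1.10 (SE 0.212, adjusted p = 0.00139). None of the 11 genes of antigen processing was among the 10.

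The level of H2-K1 is given beside the array background as a single example. The background was 89.9 to 92.1 in HFD pools and 118 to 120 in ND pools at 2 weeks, and 75.7 to 84.7 at 4, 8 and 20 weeks. The part of the background in the differences of H2-K1 was not tested. H2-K1, a class I molecule, was 12.34 in HFD pools and 9.44 in ND pools at 2 weeks, 9.78 and 9.39 at 24 weeks, when both diets had a high background (110 to 115 in HFD pools and 116 to 121 in ND pools), and 11.76 to 12.59 in all groups of the other weeks.

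**Figure D5:**
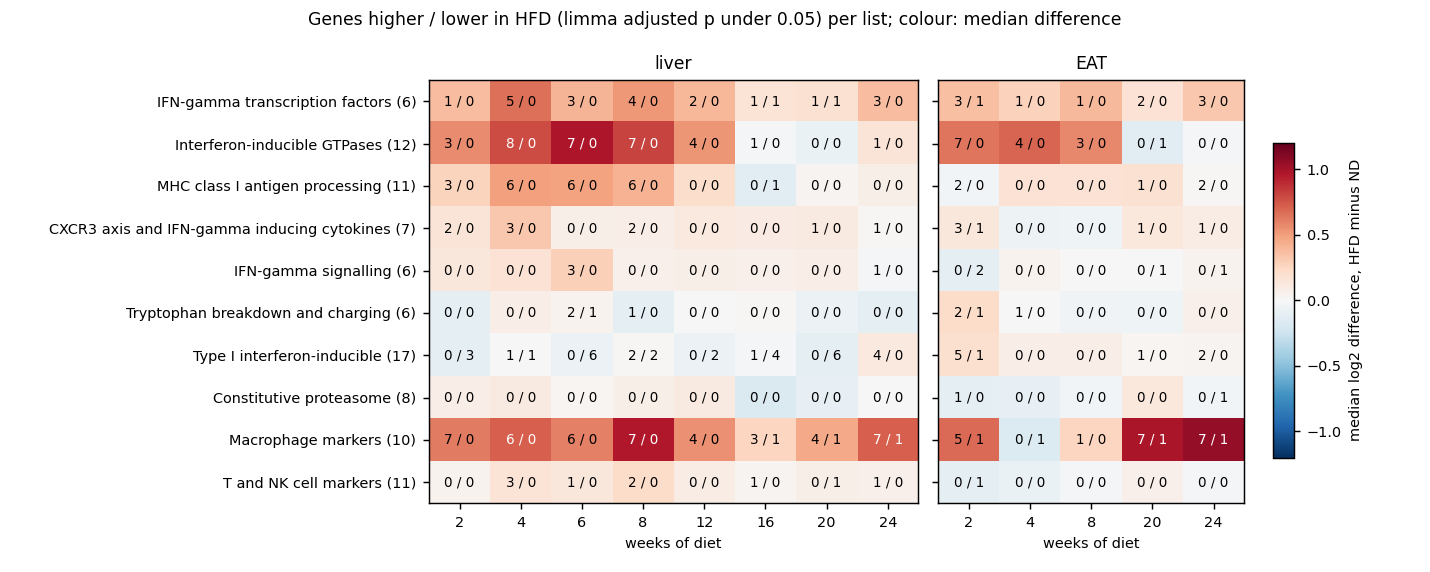
Number of genes higher / lower on HFD (limma, adjusted p under 0.05) in each list (rows, with the number of measured genes) by weeks of diet (columns) in liver and EAT; colour is the median log2 difference, HFD minus ND. In liver the GTPases and MHC class I antigen processing were called mainly up to 8 weeks (7 of 12 and 6 of 11 at 8 weeks), while macrophage markers were called at every week; in EAT the macrophage markers were called mainly at 20 and 24 weeks (7 of 10 higher) and at 2 weeks (5 of 10 higher).

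In MAT, with 1 pool per group, the differences have no replicate check. All 7 genes were higher in the HFD pool at 2 and 4 weeks, though with median scaling Irf1 (0.25) and Psmb8 (0.17) at 2 weeks turned to -0.11 and -0.18. Ubd was 11.08 in the HFD pool and 9.88 in the ND pool at 2 weeks, 11.27 and 8.84 at 20 weeks, and 10.45 and 9.25 at 24 weeks, with differences of 0.21 and 0.19 at 4 and 8 weeks. Ubd had thus its largest difference at 20 weeks in both fat depots, 2.43 in MAT. Cxcl9 was 0.20 to 0.86 higher in the HFD pool at all 5 weeks, and 10.69 against 10.49 at 24 weeks, the week at which it was lower on HFD in EAT.

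Ido1 was 8.71 in the HFD pool of MAT and 7.47 in the ND pool at 4 weeks, and at 24 weeks 8.18 and 7.48. Markers of intestinal epithelium summed to 30152 in the HFD pool and 1795 in the ND pool at 4 weeks. Of these 7 markers, Fabp2 and Epcam were detected in neither pool and Vil1 was not detected in the ND pool, so that the sums rest on the others. Gbp2 was highest in the HFD pool of 4 weeks, at 12.26 against 11.29, and its probe ILMN_3047389 differed by 1.40. Psmb8 was 13.02 in the HFD pool and 11.94 in the ND pool at 24 weeks, and Irf1 13.00 and 12.45.

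Past a 2-fold difference, 1, 2, 0, 1 and 2 of the 15 probes were higher on HFD at 2, 4, 8, 20 and 24 weeks, where 1.59%, 0.464%, 0.13%, 0.0751% and 1.21% of all probes were. Of the 48 pathway genes 6 were higher at 2 weeks (Ifi47 by 2.17, H2-K1 by 1.91, Irf8 by 1.57, Gvin1 by 1.29, Ccl5 by 1.25 and Kynu by 1.16) and 1 lower (Jak1, -1.09), where 0.819% of all probes were lower. Igtp at 4 weeks (1.09) and Ciita at 24 weeks (1.05) were the only others. The array background at 2 weeks was 81.3 in the HFD pool and 108 in the ND pool of MAT. Diet and background cannot be told apart for the genes of that week. Markers of neighbouring tissue varied between the MAT pools. Markers of intestinal epithelium summed to 44248 in the HFD pool and 4816 in the ND pool at 24 weeks, and T and NK cell markers to 20892 and 14491. The intestinal markers Fabp2 and Epcam were detected in neither pool of 24 weeks. At 20 weeks, when Ubd differed most, macrophage markers summed to 20411 in the HFD pool and 17078 in the ND pool, T and NK cell markers to 7736 and 4041, B cell markers to 2369 and 1577, lymph node stroma markers to 9363 and 6044, and hepatocyte markers to 16749 and 42836. Of the 8 hepatocyte markers 3 were detected in each pool of 20 weeks, and Alb, Serpina1c, Fgb and Hpx in neither. The part of these cells and tissues in the differences was not tested.

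The weeks were also compared among mice on ND. The members were not chosen by this comparison, but the differences they were chosen by hold the same ND arrays. The p-values are therefore not independent of the choice. In EAT 5 of the 7 genes differed between the 5 weeks (limma F-test, adjusted p under 0.05), where 41.3% of all probes did: Ubd (group means 8.72 at 2 weeks and 10.52 at 24 weeks, adjusted p = 0.00147), Cxcl10 (0.0019), Cxcl9 (0.0204), Gbp2 (0.0366) and Psmb8 (0.0434). Irf1 did not by its brightest probe (adjusted p = 0.165), though it did by 3 of the other 4, and Ido1 did not (adjusted p = 0.98). With weeks 4, 8 and 20 alone, which have a like array background, none of the 7 passed the limma test (1 at an unadjusted p under 0.05). In liver Irf1 alone differed between baseline and the 8 weeks on ND (adjusted p = 0.0326), with its lowest mean at baseline, 11.04, and its highest at 24 weeks, 11.67, where 41.8% of all probes differed. Without the baseline livers it did not (adjusted p = 0.187).

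The genes whose group means ran most like the average of the 7 were found by Pearson's r over 17 groups in liver and 10 in EAT, which share their arrays with the members. In liver they were Saa3 (0.977), Acod1 (0.973), Hk3 (0.97), Serpina3f (0.97), Ciita (0.967), H2-Eb1 (0.965), H2-DMb2 (0.965) and Calhm6 (0.961). The members themselves had 0.862 to 0.977 there, apart from Ido1 with 0.467. Each member is part of the average it was compared with, which raises its r above that of a gene outside it. In EAT they were Gm12250 (0.932), Ang2, Spink4, Gbp3 (0.874), Vmn1r236, Olfr65, Wars (0.833) and Olfr1501, of which Ang2, Vmn1r236, Olfr65 and Olfr1501 were detected on no EAT pool and Spink4 on 1. Ubd, with 0.277, and Cxcl9, with 0.435, followed that average least among the members in EAT.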

How the data were processed

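RNA of liver, EAT and MAT was hybridized to Illumina arrays (MouseWG-6 v2). The authors extracted probe intensities (BeadStudio 3.1.3 and R 2.4.1 in the submitters' processing notes). The intensities of both fat depots were deposited before normalization, each with a detection p-value. For all arrays the authors deposited quantile normalized log2 values, which were used for liver.

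EAT and MAT intensities were quantile normalized separately in R 4.3.3 with limma 3.58.1 and differed from the deposited log2 values by at most 0.00112. No probe was filtered. The array annotation named 1 gene for 34885 probes (34807 found in the reference gene table), more than 1 for 18 and no gene for 10378. Differences between HFD and ND at each week came from 1 limma fit per tissue, with Benjamini-Hochberg adjustment over 45281 probes. A probe detected on no array of a diet was given a bound. Replicates were numbered as in the sample descriptions, and 0 columns of no known sample were in use. The fits were tested on simulated data. Promoter matches were counted in Python 3.11.15, and figures drawn with matplotlib 3.10.9.

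The members and gene lists were chosen with earlier results of these data known. Named are every member, of each pathway list up to 3 genes per tissue and week with the largest difference among those called without overlap (past 2-fold in MAT), the 8 genes most like the members, and cell type markers; genes of the type I list, Cd3e, Cd3d, Adgre1 and Aif1 were chosen after their values were seen. The alternatives tried were normexp background correction (offset 16), median scaling, the deposited values, a replicate block, each week fitted alone, detected or brighter probes only, any probe of a gene, and leaving out each array. The number of pools sets the precision; read depth does not apply to arrays.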

Additional observations from a re-analysis of the deposited data

Results flagged for a closer look

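For the brightest probe of 3 genes in EAT, all HFD pools lay below all ND pools at 1 week. The same gene lay above ND without overlap at another week or in liver. Among all probes 12.6% lay below in this way at 20 weeks and 12.7% at 24 weeks. Nothing is therefore read from the number of genes. Cxcl9 had a difference of -0.74 at 24 weeks in EAT, against 0.29 at 8 weeks in EAT and 3.66 at 8 weeks in liver. Ido1 had -0.11 at 20 weeks in EAT, by a gap of 0.02 and at a level near the array median, against 0.96 at 8 weeks. Irf1 had -0.19 at 20 weeks in EAT, by a gap of 0.01, against 0.91 at 8 weeks in liver. The value of -0.19 turned to 0.11 with median scaling, and the other Irf1 probes overlapped between the diets at 20 weeks. Whether the weeks or tissues differ was not tested for these genes, since they were chosen on the same contrast.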

How the results depend on the processing

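Of 959 recomputed differences of the 7 genes, 924 moved by less than 1 SD between replicates and 34 by more. A sign changed in 13, all at differences of 0.25 or less. Irf1 at 20 weeks in EAT, which was 0.11 with median scaling, was the only one of the 13 whose diets did not overlap (MAT has 1 pool per diet). The counts of pathway genes called depended more on the fit. With median scaling they were 2 in place of 6 at 4 weeks and 3 in place of 7 at 24 weeks in EAT, and 4 in place of 7 past 2-fold at 2 weeks in MAT. Normexp correction gave 2 in place of 1 at 4 weeks and 1 in place of 0 at 20 weeks in MAT. With each week fitted alone they were 0 at 4 weeks (limma; 13 at an unadjusted p under 0.05), 18 at 8 weeks and 4 at 24 weeks in EAT. In liver, that fit gave 17, 5, 20, 1, 6 and 10 at 2, 4, 12, 16, 20 and 24 weeks, where all weeks together gave 9, 22, 6, 4, 3 and 6. The brighter probes alone gave 7 at 16 weeks. The cause of these changes was not tested, though the fit of 1 week rests on 6 arrays.

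Same-numbered arrays of the diets mostly did not deviate together (r over 0.1 in 4 of 15 pairs in EAT and 1 of 24 in liver). The highest r was 0.313 in EAT and 0.183 in liver. With so few arrays per group this cannot exclude a pairing, and the main fit used none. At 24 weeks the titles and the descriptions of the HFD arrays also number them differently. With the replicate block the count was 3 at 4 weeks and 4 at 24 weeks in EAT, and 3 at 12 weeks and 1 at 20 weeks in liver. No other count of calls moved by over 1.5 times with it.

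Leaving out each array in turn gave 16 to 23, 1 to 11, 1 to 3, 4 to 6 and 2 to 5 calls at 2, 4, 8, 20 and 24 weeks in EAT. In liver it gave 5 to 6, 5 to 25, 17 to 23, 17 to 19, 2 to 4, 1 to 8, 0 to 2 and 3 to 5 from 2 to 24 weeks. The lowest count came without HFD replicate 3 at 2 weeks (5), HFD replicate 2 at 4 weeks (5), any ND array or HFD replicate 2 at 12 weeks (2), ND replicate 2 or HFD replicate 1 at 16 weeks (1, and 8 without HFD replicate 2), and ND replicate 3 or HFD replicate 3 at 24 weeks (3). At 20 weeks it was 0 without any one of ND replicates 1 and 3 and HFD replicates 1 and 2 (limma; 5 to 7 at an unadjusted p under 0.05). In EAT it was 1 at 8 weeks without ND pool 3 or HFD pool 2 and 2 at 24 weeks without ND pool 3. The early against late counts were 20 to 25 in liver and 10 to 13 in EAT. Of the 5 members that differed between weeks on ND in EAT, 3 to 5 did so without single pools (3 without any one pool of 4 or 24 weeks) and 0 with weeks 4, 8 and 20 alone. Of the 1 in liver, 0 to 2 did so without single arrays and 0 without baseline. Changing the scaling moved the calls over all probes in EAT, from 1745 higher and 1601 lower to 2877 and 1184 at 20 weeks, from 2711 and 2040 to 2228 and 3382 at 24 weeks, from 6573 and 9840 to 5678 and 13738 at 2 weeks, from 123 and 63 to 66 and 85 at 4 weeks, and from 234 and 87 to 321 and 51 at 8 weeks.

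Precision is limited by 3 arrays per group in liver and EAT and 1 in MAT. Dim probes (Ido1 in liver, Cxcl10 in EAT) lie near the detection limit.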
